A study of Mus musculus with 2 samples.

Results

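The scavenger receptor set comprised 10 genes, Msr1, Marco, Colec12, Cd36, Scarb1, Scarb2, Cd68, Olr1, Stab1 and Cd163, taken by gene symbol from the 55536 genes of the deposited gene tables. The choice went by symbol and not by level, but it was made with earlier results of these data known. All 10 symbols were found, each with a single gene identifier. Poly(A)-selected RNA from mouse macrophages was sequenced in 2 libraries, biological replicates 1 and 2 of a single group. The cells were primary macrophages of strain C57BL/6J grown from bone marrow and exposed to a ligand at 100 ng/ml for 30 min before RNA isolation, with 1 µg of RNA as starting material. The labels name the ligand as Lipid A in one field and as lipoprotein A, typed as a protein, in others, so its identity is not settled here. Age and sex were not collected, both libraries cite the same donor record with separate biosample records, and nothing in the labels says whether the 2 cultures came from different animals. No untreated sample was analysed here, so every value describes treated cells and no response to the ligand can be read from it.

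Scavenger receptors are surface and endosomal proteins that bind modified lipoproteins, other polyanionic ligands, dying cells and microbial surfaces. They are grouped into lettered classes by domain structure and not by common descent, and macrophages use them to take up oxidised low-density lipoprotein, which turns them into lipid-laden foam cells in the arterial wall. Several members also move lipid or haem-bound protein in the resting state: CD36 carries long-chain fatty acids, SR-BI exchanges cholesterol with high-density lipoprotein and CD163 clears haptoglobin-bound haemoglobin.

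In 3 members the annotation holds a pair of coding transcripts that differ at the C-terminal end of the protein, and the choice between them separates known receptor forms. The lines below show the join for each pair on GRCm38, read 5′ to 3′ from the annotated transcripts of GENCODE M21. Lower case marks the last 30 coding bases that both transcripts share before they split. Capitals mark the coding bases that follow the split in each transcript, up to 45 of them.
Msr1-202: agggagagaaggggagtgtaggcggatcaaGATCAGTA
Msr1-201: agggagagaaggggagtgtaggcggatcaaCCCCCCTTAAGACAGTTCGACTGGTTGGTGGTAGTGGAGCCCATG
Scarb1-201: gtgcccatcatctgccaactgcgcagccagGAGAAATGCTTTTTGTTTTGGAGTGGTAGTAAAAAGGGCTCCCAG
Scarb1-202: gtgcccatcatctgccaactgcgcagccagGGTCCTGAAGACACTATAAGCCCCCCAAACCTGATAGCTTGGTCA
Cd163-201: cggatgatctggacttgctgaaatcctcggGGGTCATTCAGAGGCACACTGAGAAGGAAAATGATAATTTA
Cd163-202: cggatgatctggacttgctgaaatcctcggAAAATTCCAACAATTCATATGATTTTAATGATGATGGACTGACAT
Msr1 lies on the minus strand of chromosome 8, Scarb1 on the minus strand of chromosome 5 and Cd163 on the plus strand of chromosome 6. The Msr1 pair shared 1054 coding bases, after which Msr1-202 had 8 more and Msr1-201 had 320 more. The long end encodes the cysteine-rich domain that sets the type I receptor apart from the short type II receptor. The Scarb1 pair shared 1401 coding bases and then diverged into 126 and 117 bases, which give the cytoplasmic tails of SR-BI and SR-BII. The Cd163 pair shared 3322 coding bases up to the split, followed by 41 in Cd163-201 and 155 in Cd163-202. These ends encode a short and a long cytoplasmic tail. The 41 bases are not particular to Cd163-201: by genome position they also lie in the coding part of Cd163-202. That transcript had 114 coding bases of its own, some of which come between the split and the 41 bases. Whether both transcripts read the 41 bases in the same frame was not compared. The short tail therefore cannot be taken to lie within the long one.

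The libraries held 37784941 expected counts over genes in replicate 1 and 51904470 in replicate 2. An expected count is an estimated number of reads per gene, and a level in TPM is that number per transcript length, scaled to the same total in each library. A gene with 0 counts could still have up to 3, which is 0.0794 and 0.0578 CPM, the share of counts on the scale usual for libraries of unequal depth. A single ribosomal RNA gene, CT010467.1, took 10.9% of counts in replicate 1 and 5.05% in replicate 2. Of 10 macrophage markers, 9 reached 1 TPM in both libraries, among them Csf1r at 764 and 882 TPM and Adgre1 at 799.6 and 710.3 TPM; Cx3cr1, at 0.61 and 0.40 TPM, was not. With 2 libraries of 1 group there is no contrast to test, so differences between replicates are given as ratios with exact 95% counting intervals of the ratio of count shares. Those intervals and the SD over 2 libraries cover counting error and the spread of these samples, which may be technical, and no p-value is given.

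Of the 10 members, 9 reached 1 TPM in each library, as did 45.5% of all protein-coding genes. Only Olr1 was below that limit, in both libraries, and by the deposited posterior mean TPM it too was above it, at 1.18 and 1.68 TPM, which makes 10 of 10. The median level of the 10 members was 95.3 TPM in replicate 1 and 88.7 TPM in replicate 2, a mean of 92.0 ± 4.67 (SD, n = 2). Over all genes with a mean of 1 TPM or more, the median was 14.2 and 16.0 TPM. Together the members took 0.490% of counts in replicate 1 and 0.383% in replicate 2. Cd68 alone gave 73.5% and 81.4% of their summed TPM.

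**Figure D1:**
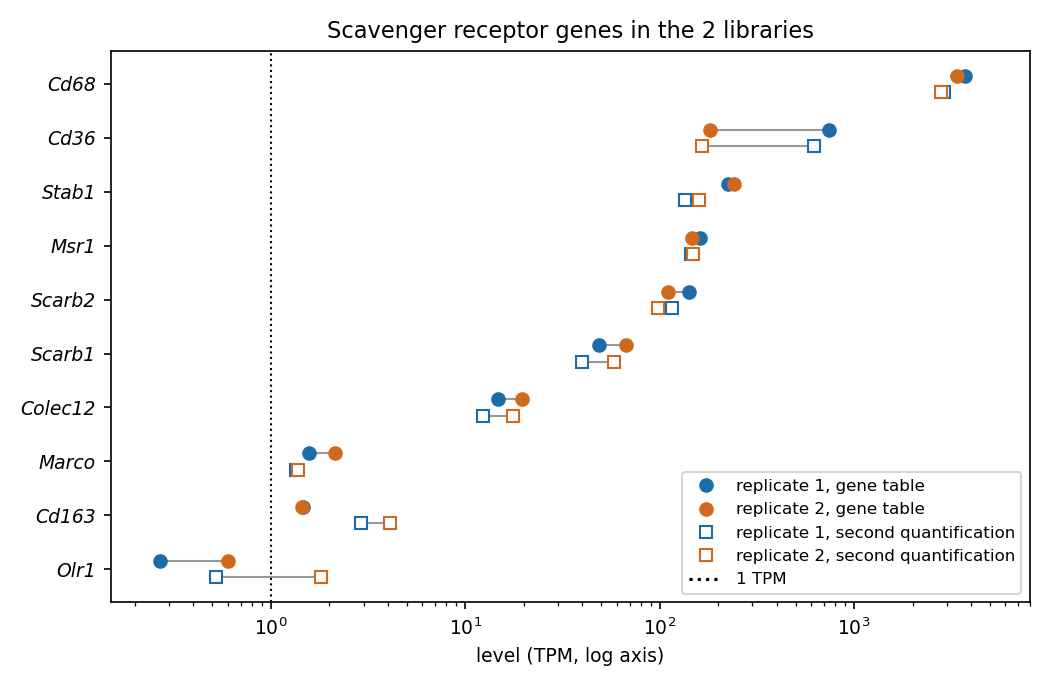
Level of each scavenger receptor gene in TPM (log axis) in replicate 1 (blue) and replicate 2 (orange), with filled circles for the deposited gene table, open squares for the second deposited quantification and a dotted line at 1 TPM. Levels run from 3702 and 3370 TPM for Cd68 down to 0.27 and 0.60 TPM for Olr1, and the pair of points for Cd36 is the widest among the genes above 1 TPM.

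In order of mean level the members ran Cd68, Cd36, Stab1, Msr1, Scarb2, Scarb1, Colec12, Marco, Cd163 and Olr1. The values of neighbours in that order overlapped between libraries only for Cd36 and Stab1: Cd36 stood above Stab1 in replicate 1 and below it in replicate 2. The other neighbours did not overlap, but the gap was narrow for Msr1 above Scarb2, whose nearest values were 147 and 142 TPM, and for Marco above Cd163, whose nearest values were 1.57 and 1.47 TPM. In the second deposited quantification, which was made from the reads and an index and not from an alignment, the order differed in places. Cd36 stood above Stab1 in both libraries there, at 619 and 165.9 TPM for Cd36 against 134 and 158 TPM for Stab1, so the exchange of places in replicate 2 was seen in the gene table alone. Stab1 was below Msr1 in replicate 1, Marco was below Cd163 in both libraries, and Olr1 was above Marco in replicate 2, at 1.80 and 1.38 TPM.

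The class A receptors are collagen-like trimers. Msr1 (ENSMUSG00000025044.16, chr8:39581685-39642673, GRCm38), which encodes SR-A, the main receptor for acetylated low-density lipoprotein, was at 160 TPM (7837 counts) in replicate 1 and 147 TPM (9705 counts) in replicate 2. Its mean was 153 ± 9.65 TPM (SD, n = 2), above 93.0% and 91.9% of the genes that reached 1 TPM in both libraries. Colec12 (ENSMUSG00000036103.9, on chromosome 18), a collectin-type scavenger receptor best known from endothelium, was at 14.7 TPM (1308 counts) and 19.5 TPM (2549 counts), a mean of 17.1 ± 3.43 TPM.

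Marco (ENSMUSG00000026390.7, chr1:120474538-120505024), a receptor of marginal zone and alveolar macrophages that binds bacteria and particles, was close to the detection limit. It had 1.57 TPM from 65 counts and 2.14 TPM from 92 counts, a mean of 1.86 ± 0.40 TPM. As a share of counts it hardly differed, at 1.72 CPM (95% interval 1.33 to 2.19) and 1.77 CPM (1.43 to 2.17). The TPM ratio of replicate 1 over replicate 2, 0.73, moved with the effective length of the gene, 1661 bases in replicate 1 and 1210 bases in replicate 2. That length differed because 2.23 expected counts in replicate 2 were given to Marco-202, a transcript of 370 bases that then made up 27.6% of the gene's TPM there and 0% in replicate 1. The second quantification gave Marco-202 nothing in either library and put the gene at 1.34 and 1.38 TPM. Within class A, Msr1 was thus the main RNA, the class as a whole summing to 177 and 168 TPM.

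The class B receptors cross the membrane at both ends and hold a tunnel through which lipid passes. Cd36 (ENSMUSG00000002944.15, chr5:17781690-17888801), a receptor for oxidised low-density lipoprotein, thrombospondin and long-chain fatty acids, was at 738 TPM (45348 counts) in replicate 1 and 182 TPM (15653 counts) in replicate 2. It was the member that varied most between the libraries, with a mean of 460 ± 393 TPM (SD, n = 2), and it ranked 153rd in replicate 1 and 711th in replicate 2 among all genes. Scarb2 (ENSMUSG00000029426.8, chr5:92441314-92506833), which encodes the lysosomal protein LIMP-2 that carries glucocerebrosidase to the lysosome, was at 142 TPM (15673 counts) and 110.1 TPM (17210 counts), a mean of 126 ± 22.3 TPM.

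Scarb1 (ENSMUSG00000037936.15, chr5:125277087-125341094), the high-density lipoprotein receptor, was at 49.0 TPM (2684 counts) in replicate 1 and 67.3 TPM (5191 counts) in replicate 2. It was the only one of the class B genes that was lower in replicate 1. Its mean was 58.2 ± 12.9 TPM, and the ratio of count shares, replicate 1 over replicate 2, was 0.71 (95% counting interval 0.68 to 0.74).

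Cd68 (ENSMUSG00000018774.13, chr11:69664213-69666153), the class D member and a heavily glycosylated protein of late endosomes and lysosomes used as a macrophage stain, was the most abundant. It was at 3702 TPM (87854 counts) and 3370 TPM (111400 counts), a mean of 3536 ± 235 TPM, and ranked 24th and 30th of all genes. Stab1 (ENSMUSG00000042286.13, chr14:31139013-31168641), the class H receptor stabilin-1 that takes up SPARC and acetylated low-density lipoprotein, was at 224.5 TPM (24262 counts) and 241 TPM (36485 counts), a mean of 233 ± 11.9 TPM. The log2 ratio of TPM, replicate 1 over replicate 2, was 0.14 for Cd68 and -0.10 for Stab1, so both genes were close to equal in the 2 libraries.

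Cd163 (ENSMUSG00000008845.9, chr6:124304656-124330527), the class I haemoglobin receptor, was low, at 1.47 TPM (140 counts) and 1.44 TPM (196 counts). The second quantification gave it more reads, 382 and 717 estimated counts and 2.93 and 4.10 TPM, a mean 2.41 times that of the gene table, so its level is uncertain by that factor. Olr1 (ENSMUSG00000030162.14, chr6:129485244-129507165), the class E lectin-like receptor LOX-1 for oxidised low-density lipoprotein, was at 0.27 TPM from 22 counts in replicate 1 and 0.60 TPM from 66 counts in replicate 2. Its ratio of count shares, replicate 1 over replicate 2, was 0.46 (95% counting interval 0.27 to 0.75), an interval that covers counting error only. In TPM, 6.07% of all genes with a mean of 1 TPM or more were at least as far apart in either direction. In the second quantification Olr1 was at 0.52 and 1.80 TPM, on either side of the limit.

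Cd36 was the single member of the 9 with a mean of 1 TPM or more that differed by more than 2-fold between the libraries. It was 4.05-fold higher in TPM in replicate 1 than in replicate 2, and the ratio of count shares was 3.98 (95% counting interval 3.91 to 4.05). Over the 11106 genes with a mean of 1 TPM or more, 2.17% were more than 2-fold higher in replicate 1 and 5.99% more than 2-fold higher in replicate 2. A count of 1 among 9 members is too small to set against those shares, and the difference is given without a test. Of the 11106 genes, 1.85% were at least as far apart in either direction, and of the 1215 genes with a mean of 100 TPM or more, only S100a9 was further apart in the direction of replicate 1.

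**Figure D2:**
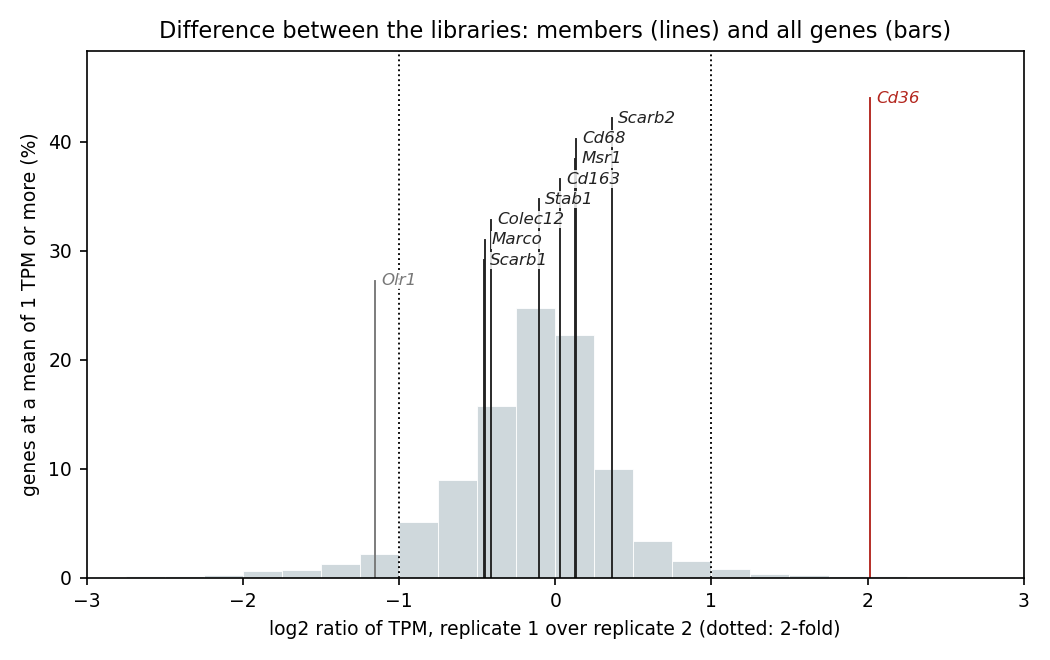
Distribution of the log2 ratio of TPM, replicate 1 over replicate 2, over the 11106 genes with a mean of 1 TPM or more (bars, percent of genes per bin of 0.25), with a line for each scavenger receptor gene and dotted lines at 2-fold. Cd36, at 2.02, stands beyond the upper 2-fold line, and Olr1 (grey, mean below 1 TPM) stands beyond the lower one at -1.15; 60 genes lie outside the range of the bins, which runs from -4 to 4, and the axis is drawn from -3 to 3.

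The Cd36 difference held under each scaling tried. Its log2 ratio was 2.02 in TPM, 1.99 as a share of counts, 2.11 after TMM scaling and 1.90 in the second quantification. The median log2 ratio of all genes was -0.10 in TPM, -0.12 as a share of counts and 0.00 after TMM scaling. Against that shift the other 8 members above 1 TPM had log2 ratios in TPM between -0.46 (Scarb1) and 0.36 (Scarb2). The sign changed with the scaling or quantification for 3 members: Marco was at -0.45 in TPM and 0.07 after TMM scaling, and Msr1 and Cd163 were above 0 in TPM, at 0.13 and 0.03, and below 0 in the second quantification, at -0.04 and -0.49.

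The 5 genes with a mean of 100 TPM or more that leaned most towards replicate 1, Cd36 aside, were S100a9, Pf4, Tfrc, Plin2 and mt-Co3. S100a9, a calcium-binding protein of myeloid cells, was at 183 and 37.1 TPM, 4.93-fold. Pf4, the chemokine CXCL4, was at 962 and 250 TPM, 3.84-fold. Tfrc, the transferrin receptor, was at 812 and 285 TPM, 2.84-fold. Plin2, which coats lipid droplets, was at 2200 and 946 TPM, 2.33-fold. The mitochondrial gene mt-Co3 had 234 and 101 TPM in the gene table, whereas the second quantification gave 1400 and 1809 TPM, the opposite order. In all, 10 of the 1215 genes at this level were more than 2-fold higher in replicate 1, Cd36 among them.

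Markers of other cell types in these bulk libraries also differed between the replicates, and a larger number of cells of a type cannot be told apart from more RNA per cell. CD36 is itself carried by platelets, microvascular endothelium and adipocytes. The summed level of 9 megakaryocyte and platelet markers was 975 TPM in replicate 1 and 257 TPM in replicate 2, nearly all of it Pf4. Of the 4 markers with a mean of 1 TPM or more, 2 were more than 2-fold higher in replicate 1, Pf4 and Ppbp. Over all genes with a mean of 1 TPM or more, that share was 2.17%. Ppbp, a platelet chemokine, was at 9.05 and 1.96 TPM. In TPM the remaining 2 of the 4 were higher in replicate 2, by less than 2-fold. Clec1b was at 1.5 and 1.67 TPM, from 31 counts in each library. After TMM scaling the ratio of Clec1b, replicate 1 over replicate 2, was 1.49, so its direction depends on the scaling. Treml1 was at 0.92 and 1.66 TPM, from 19 and 39 counts. Among the markers with a lower mean, Itga2b was at 0.95 and 0.48 TPM, from 58 and 30 counts. Gp9 and Gp6 were at 0.19 TPM or less in both libraries. The summed level of 11 neutrophil markers was 406 and 103 TPM, with 4 of the 5 markers at a mean of 1 TPM or more being higher by more than 2-fold in replicate 1, and Ly6g had 1 and 0 counts. Ngp, a neutrophil granule protein, was at 39.3 and 2.09 TPM.

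Of 12 endothelial markers, 3 reached 1 TPM in both libraries, and the summed levels were 91.5 and 73.6 TPM. Stab2 was higher in replicate 1 and Vwf and Kdr were higher in replicate 2, while Tek had 0 counts in both and Cdh5 was at 0.30 and 0.25 TPM. Of 10 stromal and adipocyte markers none reached 1 TPM, and Adipoq had 0 and 1 counts. Monocyte markers summed to 71.2 and 70.2 TPM over 6 genes and dendritic cell markers to 16.5 and 10.7 TPM over 9 genes. Of 9 T and B cell markers, Cd4 alone was detected, at 111 and 82.2 TPM, and Cd8a had 0 counts in both. Whether the neutrophil or platelet markers have a part in the Cd36 difference was not tested.

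All but one of the annotated Cd36 transcripts carry the same coding sequence of 1416 bases, and those 5 held 100% of the gene's TPM in both libraries. They differ in their first exons and in where the last exon ends. The start of Cd36-203 lies outermost, that of Cd36-204 and Cd36-202 about 39.0 kb further in, and that of Cd36-206 and Cd36-201 about 53.0 kb further in. The outermost start held 43.5% of the gene's TPM in replicate 1 and 41.3% in replicate 2, the innermost 52.2% and 53.7%, and the middle one 4.24% and 4.98%. In the main transcript table these shares differed by at most 2.22 percentage points between the libraries while the gene's level differed 4.05-fold.

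By transcript, Cd36-203 was at 321 and 75.3 TPM (4.27-fold), Cd36-206 at 249 and 69.2 TPM (3.59-fold) and Cd36-201 at 137 and 28.7 TPM (4.77-fold). The second quantification gave the outermost start 42.9% and 39.3% and the innermost 53.9% and 57.1%, a difference of at most 3.67 points. The 2 quantifications put a different transcript first, Cd36-203 in the main transcript table and Cd36-206 in the second. The transcripts also end at different places, with Cd36-201 and Cd36-206 differing mainly at the 3′ end, so the shares grouped by start also mix in these ends.

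**Figure D3:**
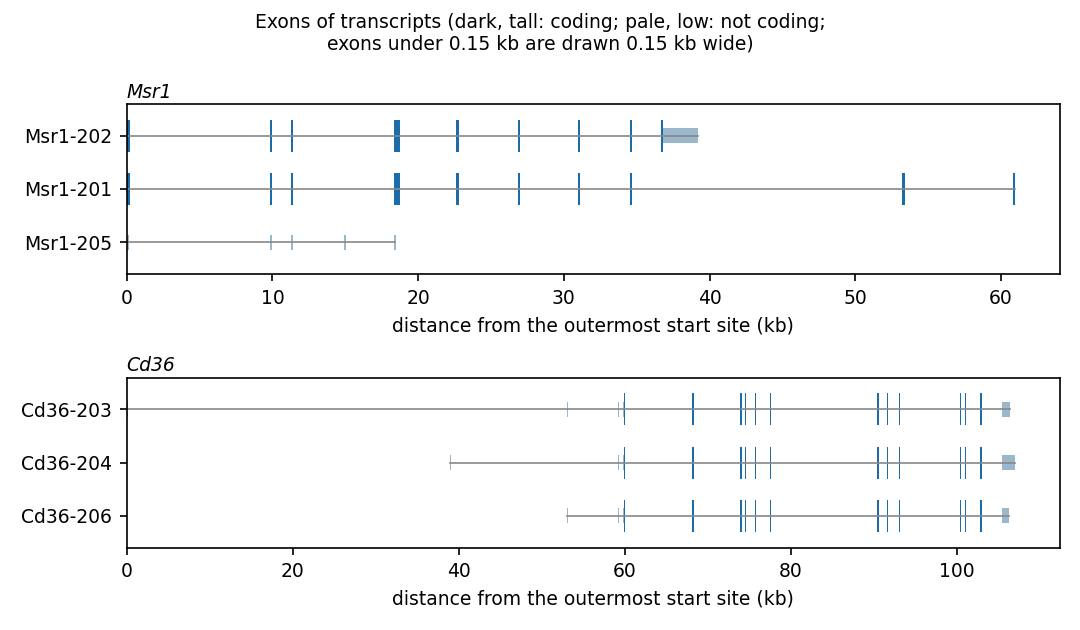
Exon maps of 3 Msr1 and 3 Cd36 transcripts by distance in kb from the outermost start site, with tall dark boxes for coding and low pale boxes for non-coding parts. Msr1-202 and Msr1-201 share all exons up to the last shared coding exon and end in separate ones. The Cd36 transcripts share their coding exons and differ in where they begin and, by less distance along the genome, in where they end. The exon sequence particular to a start can be short: the first exon of Cd36-203 spans 0 to 0.037 kb.

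The split of Msr1 at the join printed above favoured the short end. Msr1-202, the type II form, held 50.4% of the gene's TPM in replicate 1 and 46.5% in replicate 2, a mean of 48.4 ± 2.75% (SD, n = 2). Msr1-201, the type I form, held 15.6% and 19.4%, a mean of 17.5 ± 2.70%. The ratio of type II to type I was 3.24 in replicate 1 and 2.40 in replicate 2, so the short form was ahead in both. In the second quantification it was ahead by less, with ratios of 1.71 and 1.44. Msr1-205, a transcript of 421 bases with no coding sequence, held 29.2% and 24.0% of the TPM but only 2.48% and 1.90% of the gene's counts, because TPM divides by its short length.

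For Scarb1 the SR-BI tail led. Scarb1-201 held 85.3% of the gene's TPM in replicate 1 and 76.9% in replicate 2, and Scarb1-202, the SR-BII form, held 11.5% and 20.2%. SR-BI exceeded SR-BII by a factor of 7.40 in replicate 1 and 3.80 in replicate 2. The SR-BII form was at 5.65 and 13.6 TPM, so the lower total of Scarb1 in replicate 1 was shared unequally between the forms, SR-BI being at 41.8 and 51.7 TPM. The second quantification had the same order, 88.2% and 84.2% for SR-BI against 8.42% and 12.9% for SR-BII.

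The leading form of Cd163 differed between the libraries in both quantifications. Cd163-201, with the shorter tail, held 64.2% of the gene's TPM in replicate 1 and 38.2% in replicate 2, and Cd163-202, with the longer tail, held 14.9% and 43.8%. The second quantification showed the same pattern, 69.8% and 47.0% for the shorter tail and 23.9% and 49.5% for the longer one. These shares rested on 98.1 and 79.9 expected counts for Cd163-201 and 22.6 and 93.2 for Cd163-202. The retained-intron transcript Cd163-203 held 20.9% and 18.1% of the TPM in the main table and 6.34% and 3.51% in the second.

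**Figure D4:**
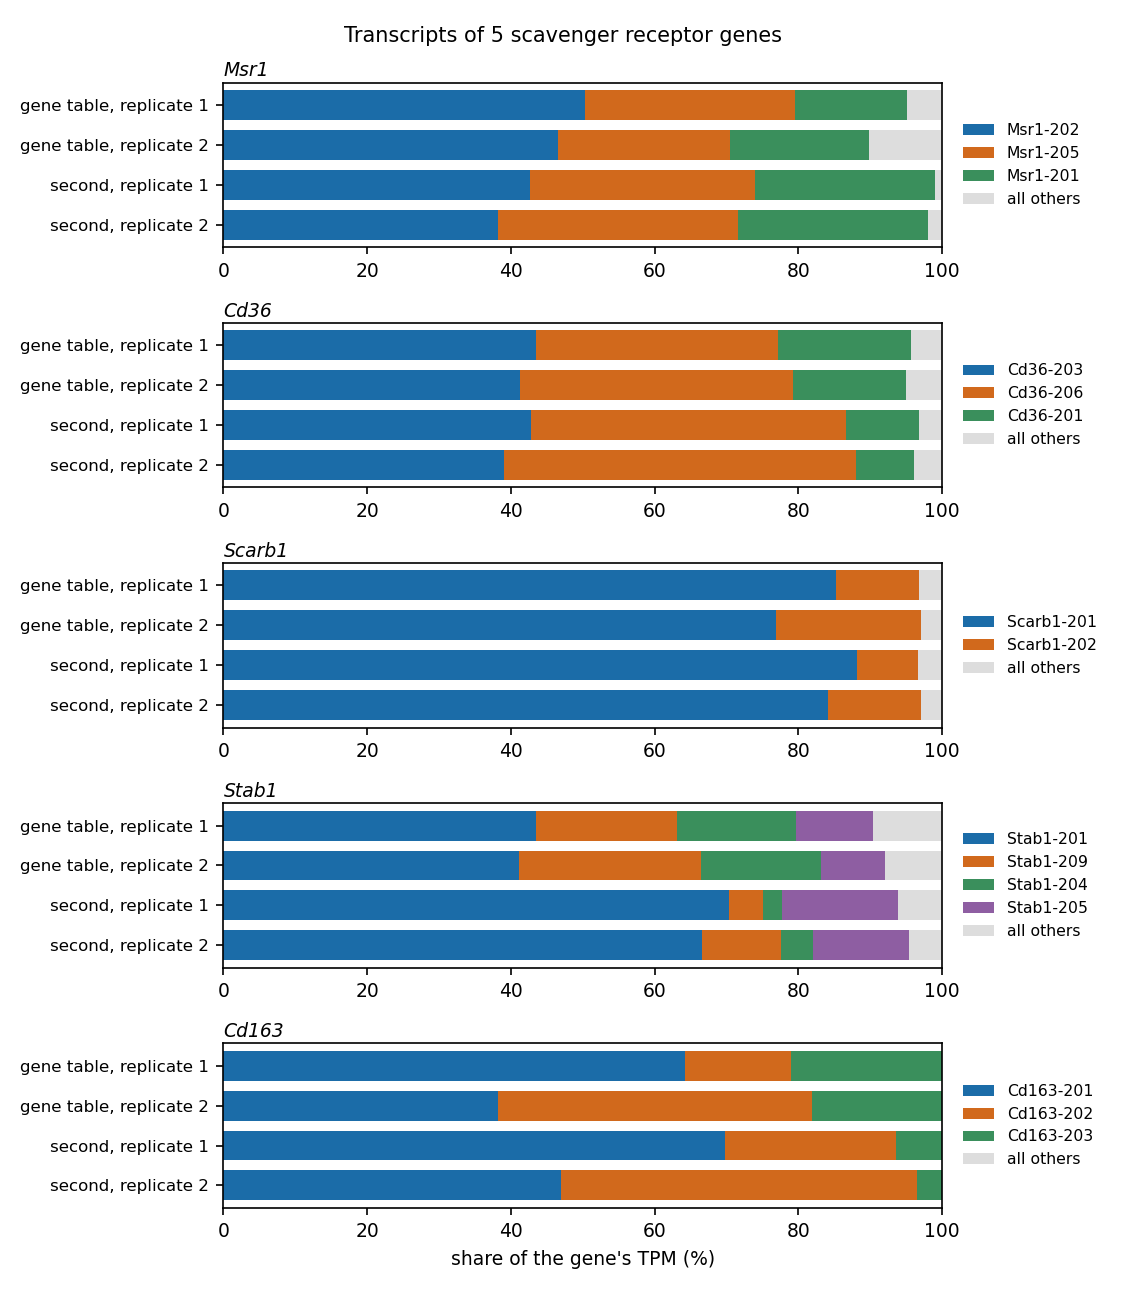
Share of each gene's TPM held by its transcripts (percent) for Msr1, Cd36, Scarb1, Stab1 and Cd163, with a bar per library in the main transcript table and in the second quantification; transcripts with a mean share of 10% or more in either are coloured and the rest are grey. The bars of Cd36 are nearly alike across the libraries, those of Cd163 differ between replicates in both quantifications, and those of Stab1 differ between the quantifications.

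For Stab1 the 2 quantifications divided the reads among transcripts differently. Its only full-length coding transcript, Stab1-201, with 69 exons and 7713 coding bases, held 43.5% and 41.2% of the gene's TPM. A further 47.9% and 53.1% went to 9 retained-intron transcripts, led by the transcripts Stab1-209 with 19.5% and 25.3%, Stab1-204 with 16.7% and 16.8% and Stab1-205 with 10.7% and 8.80%. As a share of counts the retained-intron transcripts were 21.9% and 25.4%. The second quantification gave Stab1-201 70.3% and 66.7% of the TPM, with a gene total of 134 and 158 TPM, 0.63 times the mean of the gene table. The level of Stab1-201 itself was similar in both, 97.7 and 99.4 TPM in the main table and 94.5 and 106 TPM in the second. Nt5dc2 on the opposite strand overlaps Stab1 over 112 bases and had 1677 and 3426 counts, and the sources used here do not say whether the counting used strand.

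Of the remaining members, Cd68 and Scarb2 had a single main form in both quantifications. Cd68-201 held 97.4% and 98.6% of the gene's TPM and Scarb2-201 held 99.9% and 99.8%. Colec12-201, which the annotation classes as a target of nonsense-mediated decay, held 91.5% and 88.0%, while Colec12-204, the coding transcript of 2226 coding bases, held 8.45% and 11.6% of the TPM and 18.3% and 24.5% of the counts. Marco-201 held 100% and 72.4%. Olr1-201 held 100% and 95% in the main table but 52.8% and 28.9% in the second, where Olr1-202, a partial transcript of 350 bases, held 29.9% and 57.0% from 0.72 and 6.31 estimated counts. The leading transcript by mean share was the same in both quantifications for 8 of the 10 members, the exceptions being Cd36 and Olr1.

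Other genes of scavenging and lipid uptake came from lists chosen by function. For these lists, the share of all protein-coding genes at 1 TPM or more in both libraries was 45.5%. Of genes with a mean of 1 TPM or more, 2.17% were more than 2-fold higher in replicate 1 and 5.99% in replicate 2. Of 18 other scavenger receptors, 8 reached 1 TPM in both libraries, near the share of all protein-coding genes. The other 10 were below it in both and 4 of those had 0 counts. The 3 most abundant were Cd5l, a soluble scavenger receptor cysteine-rich protein of macrophages, at 1286 and 595 TPM, Clec7a, the β-glucan receptor dectin-1, at 529 and 684 TPM, and Lrp1, a large endocytic receptor, at 408 and 292 TPM. Of the 8 with a mean of 1 TPM or more, 2 were higher in replicate 1 by more than 2-fold, Cd5l (2.16-fold) and Stab2, the stabilin-2 receptor for hyaluronan, at 72.3 and 31.4 TPM (2.30-fold). None was higher in replicate 2 by that much.

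Lipid handling downstream of uptake was represented by 15 genes, of which 14 reached 1 TPM in both libraries. Fabp5, a fatty acid chaperone, was at 5418 and 3988 TPM, Plin2 at the levels given above, and Lipa, the lysosomal acid lipase, at 1349 and 947 TPM. Plin2 and Lpl, the secreted lipoprotein lipase, were higher in replicate 1 by more than 2-fold, Lpl at 1099 and 547 TPM (2.01-fold, but 1.86-fold in the second quantification). Fabp3, a fatty acid chaperone of muscle, was higher in replicate 2, at 18.6 and 47.0 TPM. The cholesterol exporter Abca1 was at 240.3 and 138 TPM, 1.74-fold.

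Among 15 co-receptors and signal partners of CD36, 14 reached 1 TPM in both libraries, led by Itgb1 (360 and 264 TPM), the tetraspanin Cd9 (249 and 293 TPM) and the kinase Syk (225 and 184 TPM). None was more than 2-fold higher in replicate 1. Tlr2, the Toll-like receptor that CD36 assists in the sensing of diacylated lipopeptides, was higher in replicate 2, at 71.6 and 199.7 TPM, the reverse of the order for Cd36.

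Of 15 regulators of scavenger receptor genes, 14 reached 1 TPM in both libraries; the exception was Klf4, at 0.75 and 2.57 TPM. The most abundant were Nfe2l2 (NRF2), at 255 and 427 TPM, Spi1 (PU.1), at 244 and 294 TPM, and Maf, at 147 and 181 TPM. Pparg, a nuclear receptor known to act on Cd36, was at 67.8 and 53.7 TPM, 1.26-fold, and was looked up for that role and not by level. Among the 15, all with a mean of 1 TPM or more, only Klf4 differed by more than 2-fold. It was 3.43-fold higher in replicate 2, from 52 counts in replicate 1 and 250 in replicate 2. No regulator with a mean of 10 TPM or more differed by that much. Those counts and ratios describe RNA levels in these 2 libraries, and whether any of these genes has a part in the Cd36 difference was not tested.

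The partners of the lower members were unevenly present. Of 12 genes of haemoglobin and haem handling, 11 reached 1 TPM in both libraries although Cd163 itself was near 1 TPM. Trf, transferrin, was at 1348 and 895 TPM, Tfrc at the levels given above, and Hmox1, the haem-degrading enzyme haem oxygenase, at 576 and 336 TPM. Tfrc and Hp (haptoglobin) were the 2 that were higher in replicate 1 by more than 2-fold, Hp from only 60 and 41 counts. Of 8 adaptors and high-density lipoprotein partners of Scarb1, 2 reached 1 TPM in both, Apoe at 12607 and 11288 TPM and Pltp, the phospholipid transfer protein, at 739 and 528 TPM. Lipg, endothelial lipase, was at 0.83 and 5.55 TPM, and Pdzk1, the adaptor that holds SR-BI at the membrane in liver, had 6.62 and 1.1 counts.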

How the data were processed

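The libraries were 2 replicates of 1 group, so no test between groups was made. Per the deposited text files the values rest on mm10 (GRCm38) with annotation M21. For the tools and versions of the quantification and its strandedness: not given in the sources used here. Per the file headers the authors' gene and transcript tables, made from a transcriptome alignment, hold expected counts, TPM, posterior mean TPM, FPKM, credibility bounds of TPM (level not stated) and the percent of each gene's TPM per transcript. A second deposited transcript table, made from the reads and an index, holds estimated counts and TPM, which were summed per gene. The deposited FPKM values and interval bounds gave no result here. Entries naming no gene (0.0891% and 0.0698% of counts) were left out.

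The members, and the 9 pathway and 8 marker lists, were chosen with earlier results of these data known. Named were all members, transcripts holding 10% or more, and in each pathway list the 3 most abundant genes and those with a mean of 10 TPM or more that were over 2-fold apart, plus the 5 other genes of 100 TPM or more (mean) with the highest ratio in the direction of Cd36; other genes named were chosen after their values were seen. Ratios are replicate 1 over replicate 2, with exact (Clopper-Pearson) 95% intervals of the ratio of count shares, and Poisson intervals for CPM. Both cover only counting error: without molecular identifiers, reads may be copies of one molecule. The calculation was tested on simulated data. TMM factors came from edgeR 4.0.16 (R 4.3.3), on expected counts rounded to whole numbers; the rest used Python 3.11.15 with pandas 2.3.3, NumPy 2.4.6 and SciPy 1.17.1. Alternatives were the posterior mean TPM, the second quantification, TPM over protein-coding genes, other limits, scalings and pseudocounts, and leaving out a replicate.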

Additional observations from a re-analysis of the deposited data

How the results depend on the processing

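No paired analysis was possible because the 2 libraries belong to a single group. The median level of the members, 92.0 TPM, was 78.0 TPM in the second quantification and 108 TPM when TPM was rescaled over protein-coding genes, both beyond the SD between libraries. The number of members more than 2-fold apart was 2 in place of 1 in the second quantification and also with no minimum level, Olr1 joining Cd36 each time; it stayed at 1 under the 6 other alternatives run for it. Leaving out a replicate gave 9 to 9 members at 1 TPM or more, a median of 88.7 to 95.3 TPM, and 8 to 9 members with the same leading transcript in both quantifications. The second quantification moved the mean TPM of 5 members by more than the SD between libraries. The number of members at 1 TPM or more was 10 by posterior mean TPM, where Olr1 had 1.18 and 1.68 TPM, and 7 at a limit of 5 TPM. The levels of Marco, Cd163 and Olr1 rest on 22 to 196 counts per library in the gene table, and that of Cd163 differed between quantifications of the same library by more than its counting interval.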

Other observations

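Of 15 genes of apoptotic cell recognition, which shares ligands with several scavenger receptors, 11 reached 1 TPM in both libraries and none was more than 2-fold apart. Of all protein-coding genes, 45.5% reached that level in both. Among all genes with a mean of 1 TPM or more, 2.17% were more than 2-fold higher in replicate 1 and 5.99% in replicate 2. Those shares are low, so the absence of such genes from short lists, here and below, is no sign of particular stability. The opsonin genes C1qb, at 2844 and 2721 TPM in replicates 1 and 2, C1qc, at 1788 and 1986 TPM, and Gas6, at 514 and 626 TPM, were the most abundant. Mertk, the receptor tyrosine kinase that binds Gas6, was at 95.2 and 76.1 TPM. The phosphatidylserine receptor Timd4 was at 0.27 and 0.19 TPM from 13 counts in each library.

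Of 10 genes of lysosomal membrane proteins, the compartment of Cd68 and Scarb2, 8 reached 1 TPM in both libraries and none was more than 2-fold apart. Lamp1 was at 2879 and 3235 TPM, below Cd68 in both libraries, Cd63 was at 1339 TPM in both, and Lamp2 was at 490.2 and 610.3 TPM. Lamp3 and Lamp5 had 0 counts in both. The 6 proteases of receptor shedding all reached 1 TPM in both libraries and none was more than 2-fold apart, with Adam9 at 79.1 and 73.7 TPM, Adam17 at 61.6 and 76.0 TPM and Adam10 at 45 and 52.4 TPM.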
